A study of Homo sapiens with 6 samples.

Results

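The 8 genes described here are long non-coding RNAs induced by or otherwise tied to the tumour suppressor p53, together with the non-coding genes listed over BAX and XPC, both coding targets of p53. They were chosen by name (PURPL, LINC-PINT, TP53TG1, MIR34AHG, PANDAR, DINOL, XPC-AS1 and ENSG00000305635) from 35036 non-coding genes in the deposited table of read counts, and 8 of 8 names were found. The libraries came from U-2OS, a human osteosarcoma line known to keep p53. All 6 had received actinomycin D, which blocks transcription and is known to activate p53 (dose and time not given in the labels), and were transfected with a control siRNA (siCtrl, 3 libraries) or an siRNA against the RNA-binding protein SFPQ (siSFPQ, 3 libraries). No untreated library was part of the set, so induction by actinomycin D itself was not measured, and SFPQ's own level was not analysed here.

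p53 is a transcription factor that is kept low by the ubiquitin ligase MDM2 and accumulates after DNA damage or when ribosome production fails. It binds a response element made of a pair of short half-sites and switches on genes of cell cycle arrest (CDKN1A), apoptosis (BAX), DNA repair (XPC) and of its own restraint (MDM2). A number of long non-coding RNAs belong to the same programme. PURPL lowers p53 levels, DINOL binds and stabilises p53, PANDAR holds back the transcription factor NF-YA, LINC-PINT works with the Polycomb complex PRC2, and MIR34AHG is the host of the microRNA miR-34a, which represses cell cycle genes.

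Of the 5 members with a promoter window, PURPL was the only one whose window held an exact match to the p53 element. RefSeq promoter windows (250 bases before to 50 after each start, GRCh38.p14) were found for 5 of the 8 members, and the p53 half-site consensus was searched in them without mismatch; it reads the same on both strands. Of 35116 windows of 300 bases, 6.63% held a half-site and 6 (0.0171%) held a directly adjoining pair. The PURPL window held such a pair, 127 to 108 bases before the start (chr5:27472165-27472184), and none was found in the windows of LINC-PINT, TP53TG1, MIR34AHG and DINOL. The match is a match of letters and says nothing about binding in these cells, and a window without one says only that these letters are not there. The PURPL window (chr5:27472042-27472341, plus strand, 5′ to 3′) is shown with the pair in capitals.
PURPL: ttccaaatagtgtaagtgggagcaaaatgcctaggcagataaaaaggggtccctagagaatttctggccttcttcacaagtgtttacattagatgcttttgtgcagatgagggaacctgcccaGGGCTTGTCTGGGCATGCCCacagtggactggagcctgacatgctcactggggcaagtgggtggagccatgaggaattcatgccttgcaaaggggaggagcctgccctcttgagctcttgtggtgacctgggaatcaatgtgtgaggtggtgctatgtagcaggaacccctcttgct

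DINOL is shown because its counts differed between the groups and it starts beside CDKN1A, the gene of the cell cycle inhibitor p21. In RefSeq the DINOL and CDKN1A starts lie 155 bases apart and point away from each other. In GENCODE 29 the CDKN1A gene begins farther upstream, at 36676460, so the bases between the RefSeq starts lie inside its span. Whether they serve both genes as promoter was not tested. The DINOL window (chr6:36678510-36678809, minus strand, 5′ to 3′) has in capitals the bases between these RefSeq starts.
DINOL: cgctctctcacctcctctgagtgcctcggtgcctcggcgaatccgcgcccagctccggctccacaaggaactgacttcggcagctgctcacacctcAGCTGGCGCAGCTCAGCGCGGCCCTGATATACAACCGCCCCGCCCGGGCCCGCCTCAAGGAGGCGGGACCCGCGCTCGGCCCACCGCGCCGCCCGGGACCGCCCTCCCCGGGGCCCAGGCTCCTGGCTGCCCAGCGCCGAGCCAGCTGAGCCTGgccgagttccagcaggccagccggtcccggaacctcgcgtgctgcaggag
TP53TG1 and CROT, a carnitine acyltransferase gene, start 172 bases apart in the same divergent arrangement, and LINC-PINT and MKLN1 start 169 bases apart.

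MIR34AHG carries miR-34a (chr1:9151735-9151756 for the 5p arm, minus strand). The mature 5p sequence from RefSeq (GRCh38.p14) is shown with its seed, bases 2 to 8, in capitals, since it is the product for which the host gene is known. The libraries were made from poly(A)-selected RNA and count the host RNA, not the mature microRNA.
hsa-miR-34a-5p: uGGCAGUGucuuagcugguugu

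Total counts in the table ran from 1298658 to 1599566 per library. The table holds non-coding genes, so the totals do not give the sequencing depth of the libraries. CPM below is relative to the counts in this table, scaled by TMM factors. Whether the replicates were separate cultures is not stated, so p-values measure only the spread between these samples, which may be technical. The libraries were stranded per the labels, but whether the counting used strand is not given in the sources used here, so whether reads of a gene and its antisense partner were kept apart is not known. Of the 7 mesenchymal or osteosarcoma markers among non-coding genes, 7 were listed; RUNX2-AS1 was at 0 and MEG3 at 2 counts in all, while their summed level was 633 to 707 CPM in siCtrl and 384 to 398 CPM in siSFPQ. Of 5 haematopoietic markers MIR142HG was at 0 in all libraries and MIAT made up most of a summed 578 to 614 CPM in siCtrl and 208 to 243 CPM in siSFPQ (its own siCtrl mean was 533 CPM). The liver markers (3 of 3 listed) summed to 7.47 to 16.5 CPM in siCtrl and 11.5 to 13.7 CPM in siSFPQ, those of smooth muscle (2 of 2) to 132 to 149 and 82.2 to 104 CPM, and the neuronal ones (1 of 3) to 4.49 to 9.51 and 8.40 to 12.98 CPM; the keratinocyte marker was not among the genes analysed. The part of other cells in the results was not tested.

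The design asks how loss of SFPQ by siRNA bears on these genes when all cells carry actinomycin D. XPC-AS1 was higher, and ENSG00000305635, DINOL and, by a small amount, PURPL were lower in siSFPQ. DINOL entered the test through its siCtrl libraries alone. LINC-PINT, TP53TG1 and MIR34AHG were not called, and PANDAR had too few counts to be tested. Fewer cells with an RNA and less of it per cell cannot be told apart in bulk libraries. The tests were edgeR's quasi-likelihood tests across 6325 genes with Benjamini-Hochberg adjustment, and a gene was called at an adjusted p under 0.05. Of all tested genes 48.4% were called, 24.5% higher and 24.0% lower, so 4 called of 7 tested members is read as no more than the background. The groups did not overlap for 4 members, and for 54.0% of all tested genes. Both counts of 4 include DINOL and are to be read with its limit. The median log2 fold change was -0.13 over the 7 tested members and 0.01 over all tested genes.

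**Figure D1:**
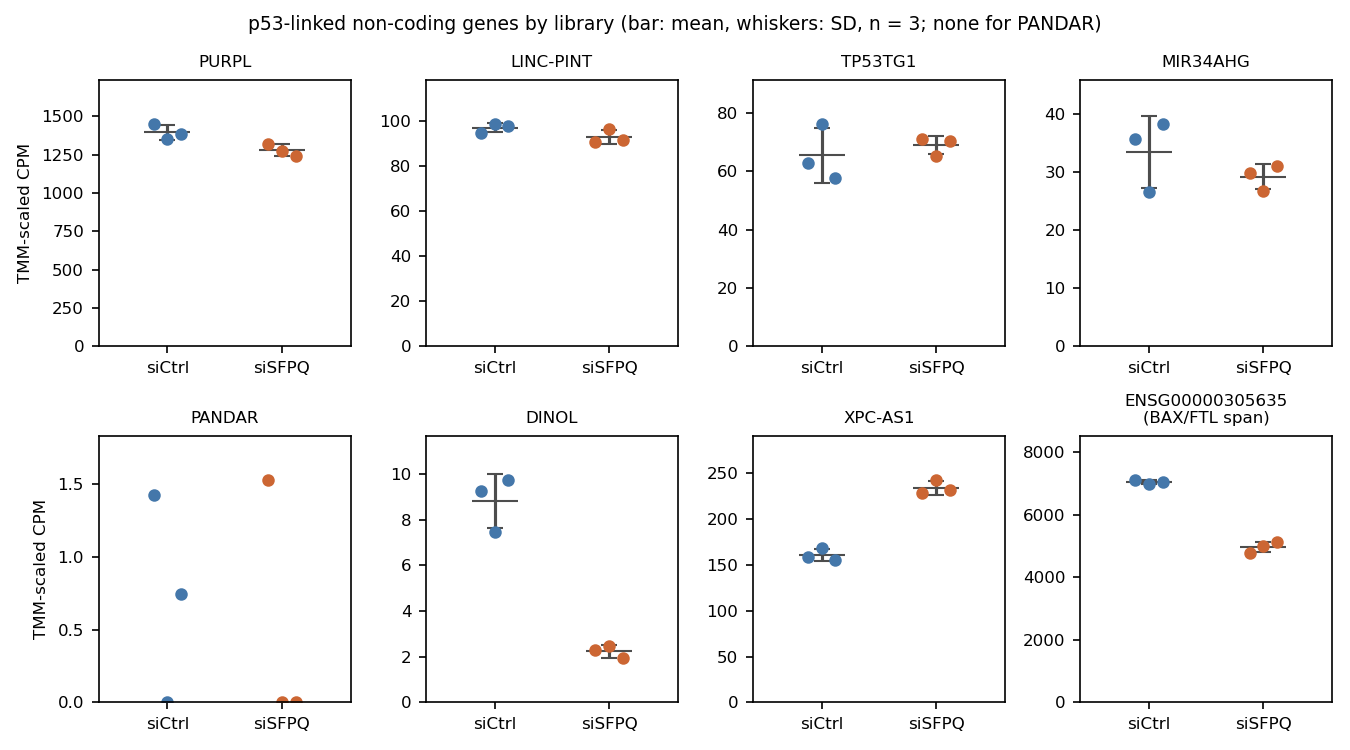
TMM-scaled CPM (y axis, from 0, a scale of its own in each panel) of the 8 members in the 3 siCtrl and 3 siSFPQ libraries; points are libraries, horizontal bars means and whiskers SD, left out for PANDAR. XPC-AS1, DINOL, ENSG00000305635 and PURPL have groups that do not overlap, with siSFPQ above siCtrl only for XPC-AS1.

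Among RNAs that act on p53 itself, DINOL (ENSG00000285244, chromosome 6, 36677609 to 36678490, minus strand) had few reads and a lower level in siSFPQ. It had 13, 11 and 13 counts in the siCtrl libraries and 3, 4 and 3 in the siSFPQ libraries. Each siSFPQ library was below each siCtrl library. In CPM these were 8.83 ± 1.19 and 2.24 ± 0.280 (SD, n = 3), and the log2 fold change was -1.93 ± 0.46 (SE; edgeR, adjusted p = 1.3e-04). The ratio of the summed counts, 10 against 37, was 0.266 with a 95% exact interval of 0.118 to 0.546, which covers counting error only. DINOL passed the low-count filter through the siCtrl libraries alone, with 3 of 3 over the minimum there and 0 of 3 in siSFPQ. Its entry into the test thus depended on its being high in siCtrl, and its p is to be read with that limit. With no low-count filter, where every gene with any count entered, the log2 fold change was -1.94 (edgeR, adjusted p = 7.1e-04). A fit also made without that filter gave -1.98 (DESeq2, adjusted p = 0.029). DESeq2's adjustment by default screens genes on their mean count over all libraries, so this p also depends on the level. Both fits use the same few counts and are no independent support. Its listed exonic length of 951 bases exceeds its listed span of 882, and in GENCODE 29 146 of its exonic bases overlap an upstream exon of CDKN1A on the other strand. CDKN1A itself was not analysed here, and whether reads of that exon entered the DINOL counts is not known.

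PURPL (ENSG00000250337, chromosome 5, 27217714 to 27496397, plus strand) was the most abundant member that overlaps no coding exon. Its level was 1446, 1352 and 1383 CPM in siCtrl and 1319, 1274 and 1242 CPM in siSFPQ. The groups did not overlap on this scale, but the gap between the nearest libraries was small beside the level. The log2 fold change was -0.13 ± 0.05 (SE; edgeR, adjusted p = 0.024), with a 95% interval of -0.22 to -0.03. This call did not hold with plain library totals (log2 fold change -0.0605, edgeR, adjusted p = 0.31), with no low-count filter (adjusted p = 0.066) or with DESeq2 (adjusted p = 0.062), nor without siCtrl replicate 1 (log2 fold change -0.11, edgeR, adjusted p = 0.10), siSFPQ replicate 2 (-0.12, adjusted p = 0.071) or siSFPQ replicate 3 (-0.11, adjusted p = 0.12). Over the 15 alternatives the adjusted p ran from 0.0097 to 0.31, and 9 of them kept the call. Its listed span reaches much farther upstream than that in GENCODE 29, which begins at 27472292, where the promoter window shown above also places the start.

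PANDAR (ENSG00000281450, chromosome 6, 36673621 to 36675126, minus strand), which lies 1334 bases upstream of the CDKN1A gene of GENCODE 29, was near the limit of detection. The siCtrl libraries held 2, 0 and 1 of its reads, the siSFPQ libraries 2, 0 and 0. No fold is given, since both sums, 3 and 2 counts, are at or under the floor of 3 counts. In plain CPM these sums are 0.685 (95% exact interval 0.141 to 2.00) and 0.450 (0.0545 to 1.63), and the intervals overlap. A difference was not detectable at this depth. Within the CDKN1A neighbourhood the members thus stood at different levels, DINOL measurable in siCtrl and PANDAR hardly at all in either group.

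The other p53-induced RNAs without a coding gene over most of their exons showed no called difference. LINC-PINT (ENSG00000231721, chromosome 7, 130791264 to 131109940, minus strand) was at 94.9, 98.5 and 98.0 CPM in siCtrl and 90.9, 96.5 and 91.8 CPM in siSFPQ. The groups overlapped, and the log2 fold change was -0.06 (95% interval -0.27 to 0.15; edgeR, adjusted p = 0.68). TP53TG1 (ENSG00000182165, chromosome 7, 87322943 to 87345540, minus strand), an RNA first named as a p53 target gene, was at 62.8, 76.1 and 57.6 CPM in siCtrl and 71.0, 65.4 and 70.5 CPM in siSFPQ. All siSFPQ libraries fell within the siCtrl range, and the log2 fold change was 0.07 (95% interval -0.18 to 0.32; edgeR, adjusted p = 0.70). The intervals leave room for differences of these sizes in either direction, so they do not show that the genes stayed the same.

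MIR34AHG (ENSG00000228526, chromosome 1, 9139555 to 9202710, minus strand) was at 35.7, 26.5 and 38.2 CPM in siCtrl and 29.8, 26.8 and 31.0 CPM in siSFPQ. The siSFPQ libraries lay inside the siCtrl range, whose lowest library was siCtrl replicate 2. Its log2 fold change was -0.19 (95% interval -0.56 to 0.17; edgeR, adjusted p = 0.41). LNCTAM34A, which runs over 16436 bases of the same span on the other strand and may share its reads, was at 55.3 ± 15.0 and 52.1 ± 4.82 CPM (SD, n = 3) and was not called either (log2 fold change -0.07, edgeR, adjusted p = 0.70).

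XPC-AS1 (ENSG00000228242, chromosome 3, 14144637 to 14165978, plus strand) was the member that rose. Its level was 159, 169 and 155 CPM in siCtrl and 228, 242 and 231 CPM in siSFPQ. Every siSFPQ library was above every siCtrl library by a margin several times the spread within a group. The log2 fold change was 0.54 ± 0.08 (SE; edgeR, adjusted p = 6.1e-10), and it was called under 15 of 15 alternatives, at 0.50 to 0.61. XPC recognises damaged DNA in nucleotide excision repair. In GENCODE 29, 1140 bases of XPC-AS1 exons overlap XPC exons on the other strand and 664 overlap exons of another coding gene, AC090004.1, on the same strand, out of a listed exonic length of 4015. Whether reads of XPC or AC090004.1 entered the XPC-AS1 counts is not known.

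ENSG00000305635 (chromosome 19, 48949933 to 48965927, minus strand) had by far the most counts of the members. Its level was 7101, 6971 and 7060 CPM in siCtrl and 4788, 4991 and 5115 CPM in siSFPQ. The siSFPQ libraries were all below the siCtrl libraries, with spreads of 66.5 and 165 CPM (SD, n = 3). The log2 fold change was -0.50 ± 0.04 (SE; edgeR, adjusted p = 2.7e-32), called under 15 of 15 alternatives at -0.53 to -0.44. Its share of the whole table was 0.669% to 0.681% in the siCtrl libraries, against 0.483% to 0.512% with siSFPQ, and it took 73.3% to 80.2% of the counts of all 8 members.

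This gene lies not only over BAX, whose product permeabilises mitochondria in apoptosis. Its listed span runs antisense over all 2587 exonic bases of BAX and also over 456 of the 878 exonic bases of the neighbouring gene FTL in GENCODE 29. FTL encodes the ferritin light chain, an iron storage protein and usually a very abundant RNA with many near-identical pseudogene copies. Release 29 lacks ENSG00000305635, so which bases within the span were counted is not known, and neither is how many of its reads came from BAX, from FTL or from the non-coding gene. The fall of ENSG00000305635 is therefore not a measurement of BAX. The most abundant tested neighbour within 100 kb, NUCB1-AS1 over the nucleobindin gene NUCB1, also fell; its siCtrl level was 214 ± 0.674 CPM and its siSFPQ level 145 ± 9.87 CPM (SD, n = 3; log2 fold change -0.56, edgeR, adjusted p = 8.2e-10). ENSG00000299502, another tested neighbour, rose by 0.64 on the log2 scale (edgeR, adjusted p = 1.1e-05).

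**Figure D2:**
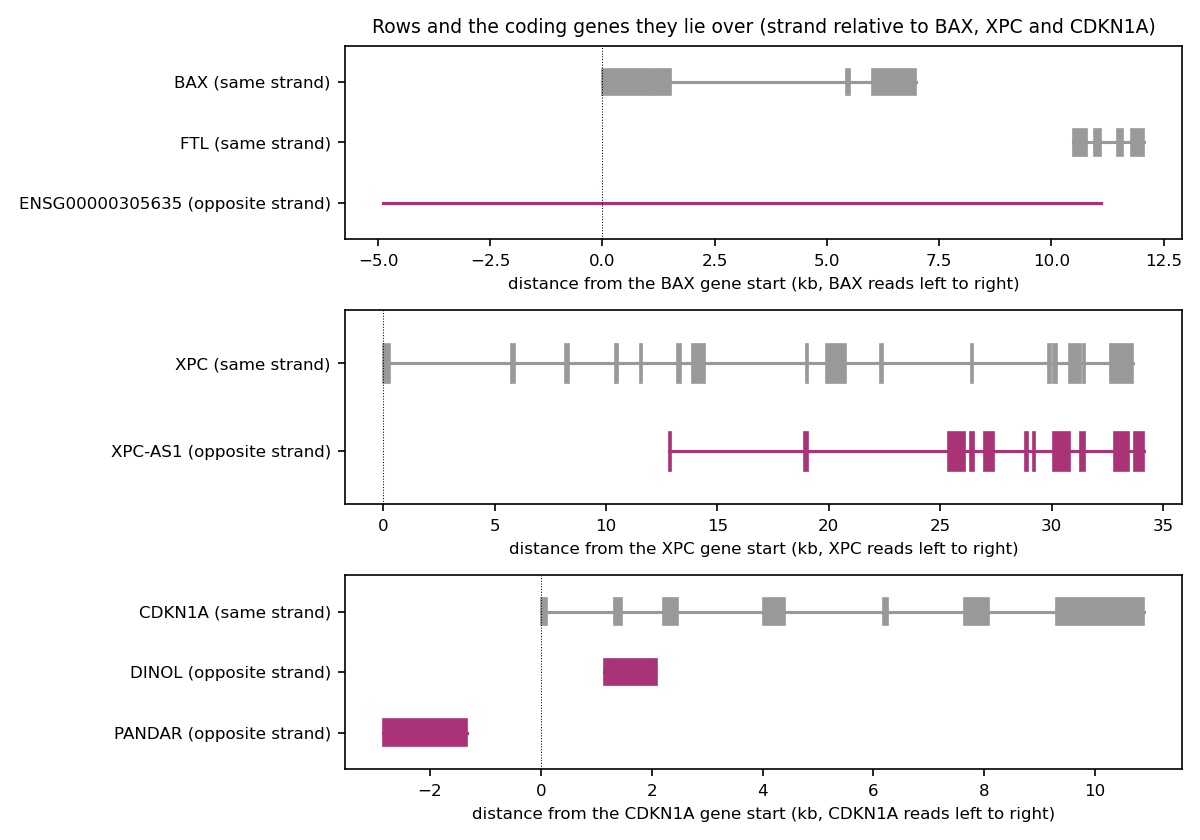
Positions of ENSG00000305635, XPC-AS1, DINOL and PANDAR relative to the coding genes at their loci, as distance in kb from the GENCODE 29 start of BAX, XPC and CDKN1A (x axis); boxes are exons and lines gene spans. ENSG00000305635, drawn as its listed span because its exons are not known, covers BAX and the first 456 exonic bases of FTL, DINOL overlaps 1 upstream exon of CDKN1A, and PANDAR overlaps none.

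Around the members few other genes could be tested. Of 37 genes in the table within 100 kb of a member, members left out, 4 passed the filter, of which 1 was higher and 1 lower. The other tested ones were LNCTAM34A and LINC00513, which shares 145105 bases of span with LINC-PINT on the other strand and was at 26.3 ± 1.59 and 23.3 ± 4.13 CPM (SD, n = 3; log2 fold change -0.18, edgeR, adjusted p = 0.50). The 4 tested genes lay near ENSG00000305635, LINC-PINT and MIR34AHG. The other members had no tested gene within that distance, except that PANDAR lies near DINOL, itself a tested member.

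**Figure D3:**
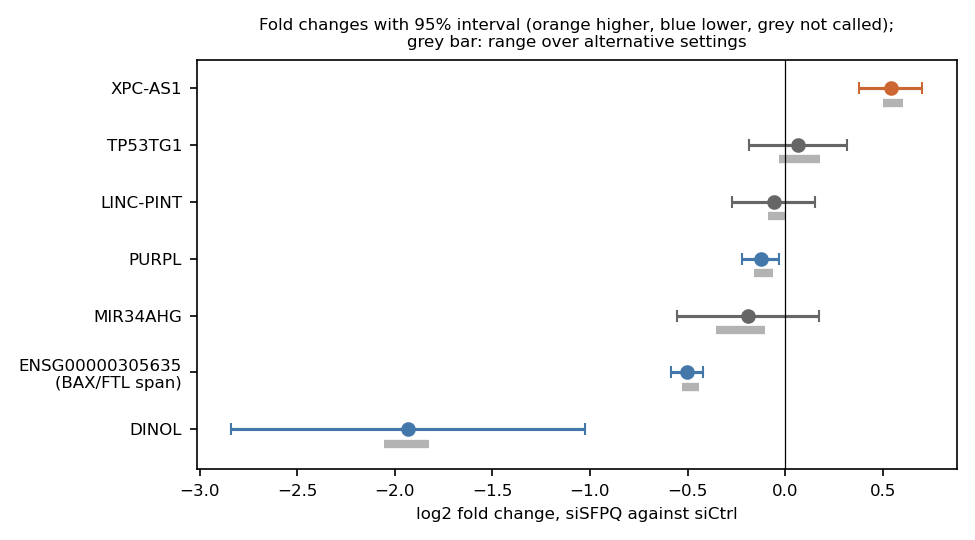
Log2 fold change of siSFPQ against siCtrl (x axis) of the 7 tested members; points are edgeR estimates, whiskers 95% intervals, and grey bars the range over 15 alternative settings. The intervals of XPC-AS1 and ENSG00000305635 are far from 0, that of DINOL, which entered the test through siCtrl alone, is wide and below 0, that of PURPL ends at -0.03, and those of LINC-PINT, TP53TG1 and MIR34AHG hold 0.

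Levels per kb of listed exonic length put the members on a common scale, with the limits given below. In siCtrl the order was ENSG00000305635 (2204 ± 20.8 CPM per kb, SD, n = 3), PURPL (59.0 ± 2.03), XPC-AS1 (40.1 ± 1.74), TP53TG1 (9.81 ± 1.43), DINOL (9.28 ± 1.25), MIR34AHG (3.18 ± 0.585), LINC-PINT (2.32 ± 0.0466) and PANDAR. Of these neighbours only TP53TG1 and DINOL had overlapping libraries. In siSFPQ the level of XPC-AS1, 58.3 ± 1.83 CPM per kb, lay above that of PURPL, 54.1 ± 1.64, without overlap. DINOL, at 2.36 ± 0.294, ranked below MIR34AHG (2.78 ± 0.208) and overlapped both it and LINC-PINT (2.22 ± 0.0727). These levels rest on listed lengths that are long for PURPL and LINC-PINT, and which of their exons these cells use was not tested. The listed length of DINOL exceeds its span. The counts of ENSG00000305635, XPC-AS1 and DINOL may include reads of coding genes, which was not tested. The order is therefore one of listed genes and may not be that of the non-coding RNAs.

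**Figure D4:**
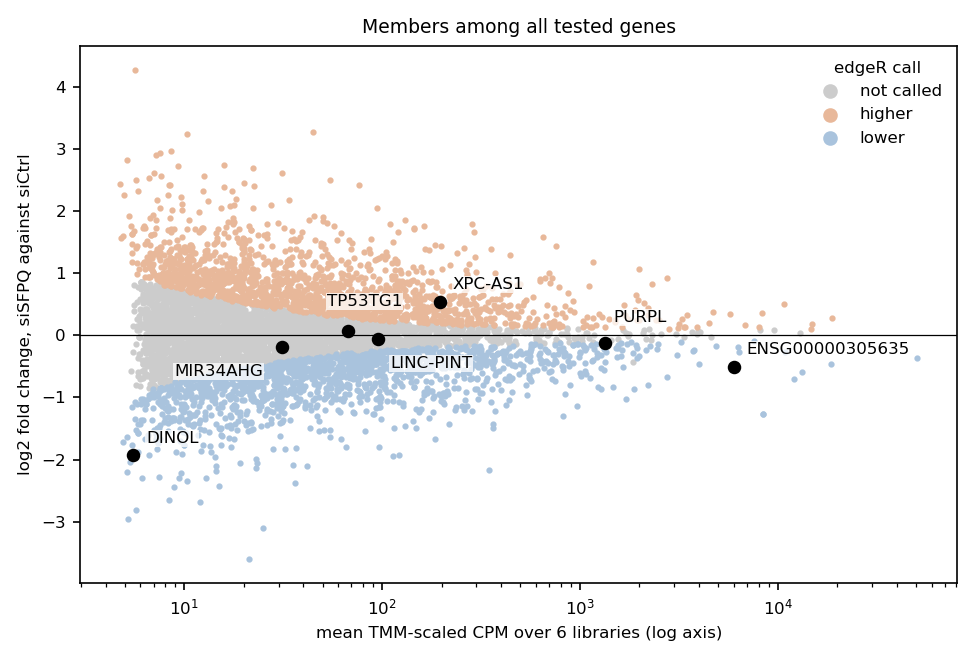
Log2 fold change of siSFPQ against siCtrl (y axis) over mean TMM-scaled CPM (x axis, log) for the 6325 tested genes, coloured by edgeR call, with the 7 tested members in black. The members span the range of levels from DINOL at 5.53 CPM to ENSG00000305635 at 6004 CPM.

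Profiles were also compared with those of all other named genes of at least 5 CPM, 2065 in number, by the root mean square difference of log2 CPM over the 6 libraries after centring. The gene most like XPC-AS1 was the snoRNA host GAS5 (0.036, log2 scale), which rose by 0.52, and that most like ENSG00000305635 was its neighbour NUCB1-AS1 (0.042). PURPL was closest to SLC25A5-AS1 (0.037) over the nucleotide carrier gene SLC25A5, whose log2 fold change was -0.16, and DINOL to PTPRG-AS1 (0.14), which fell by 1.93 on the log2 scale. LINC-PINT was closest to RRN3P3 (0.025), TP53TG1 to KIF23-AS1 (0.039) and MIR34AHG to LINC01193 (0.080). The measure rests on the same 6 libraries as the fold changes and is given as a description.

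Other long non-coding RNAs with reported ties to p53 were taken from a list of 40 names, whose ties differ in strength. Of these, 26 were in the table and 15 could be tested: 3 were higher, 9 lower and 3 not called, with a median log2 fold change of -0.35 against 0.01 over all tested genes, of which 24.5% were higher and 24.0% lower. The 11 tested ones without coding exon overlap held 3 higher and 5 lower, with a median of -0.16. The list was chosen with earlier results of these data known, and the background was not matched for level. Its counts and medians therefore describe the list and do not test whether p53-linked RNAs fell. The imprinted RNA H19 was at 150 ± 15.0 CPM in siCtrl and 43.1 ± 10.8 CPM in siSFPQ (SD, n = 3) and fell (log2 fold change -1.79, edgeR, adjusted p = 1.4e-49). The nuclear RNAs MALAT1 and NEAT1, of which NEAT1 is a direct p53 target, had log2 fold changes of -1.27 and -0.59. LINC00472, called p53RRA for its p53-regulated role, fell from 216 ± 10.2 to 91.0 ± 9.11 CPM (SD, n = 3), by 1.24 on the log2 scale. GAS5 (0.52), NORAD (0.25), which keeps chromosomes stable by binding Pumilio proteins, and the snoRNA host SNHG1 (0.18) rose. Without CCDC144NL-AS1 and TMEM30A-DT, whose tie to p53 is the least certain, 3 were higher and 7 lower of 13 tested, with a median of -0.20.

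Genes of the table at coding p53 targets went both ways. The list held 76 coding targets, of which 29 had such a gene besides the members; of these 37 genes 24 were tested, 6 were higher, 8 lower and 10 not called, with a median log2 fold change of -0.22. Against 48.4% called over all tested genes, 14 of 24 is read as no more than the background. Exons of a coding gene overlapped 22 of the 24, taken over the whole listed span for genes that GENCODE 29 lacks. Whether reads of the coding gene entered the counts of these 22 is not known. ENSG00000257181, over MDM2, was at 335 ± 15.3 CPM in siCtrl and 262 ± 11.9 CPM in siSFPQ (SD, n = 3) and fell (log2 fold change -0.36, edgeR, adjusted p = 2.1e-06). ENSG00000271730 over SESN1, a stress-induced inhibitor of mTORC1, fell by 1.10 on the log2 scale, and CD82-AS1 over the tetraspanin gene CD82 by 1.52. ENSG00000288873, over the phosphatase gene PHPT1 and also over AJM1, fell by 0.73. Higher were ENSG00000310095 over PHLDA3, an inhibitor of AKT (0.85), ENSG00000265840 over the adaptor gene TRAF4 (0.97) and ABALON over BCL2L1, the gene of the anti-apoptotic protein BCL-XL (0.58). PHLDA3 and TRAF4 each had 2 tested genes and both rose at each locus. At PHLDA3, ENSG00000224818 was near the threshold (log2 fold change 0.51, edgeR, adjusted p = 0.042). ENSG00000310095 varied widely in siCtrl (47.9 ± 16.4 CPM, SD, n = 3). The list held 5 higher and 6 lower genes with DESeq2, 5 and 8 with limma-voom, and 7 and 8 with plain library totals. Without siSFPQ replicate 2 it held 6 higher and 6 lower. BCL2L1 had 1 higher and 1 lower, ABALON and the less abundant BCL2L1-AS1 (-0.86). At FAS, PMAIP1 and TNFRSF10C none was called, with log2 fold changes of -0.25, -0.09 and -0.08. The gene at FAS also lies over ACTA2, and that at TNFRSF10C over AC107959.5.

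**Figure D5:**
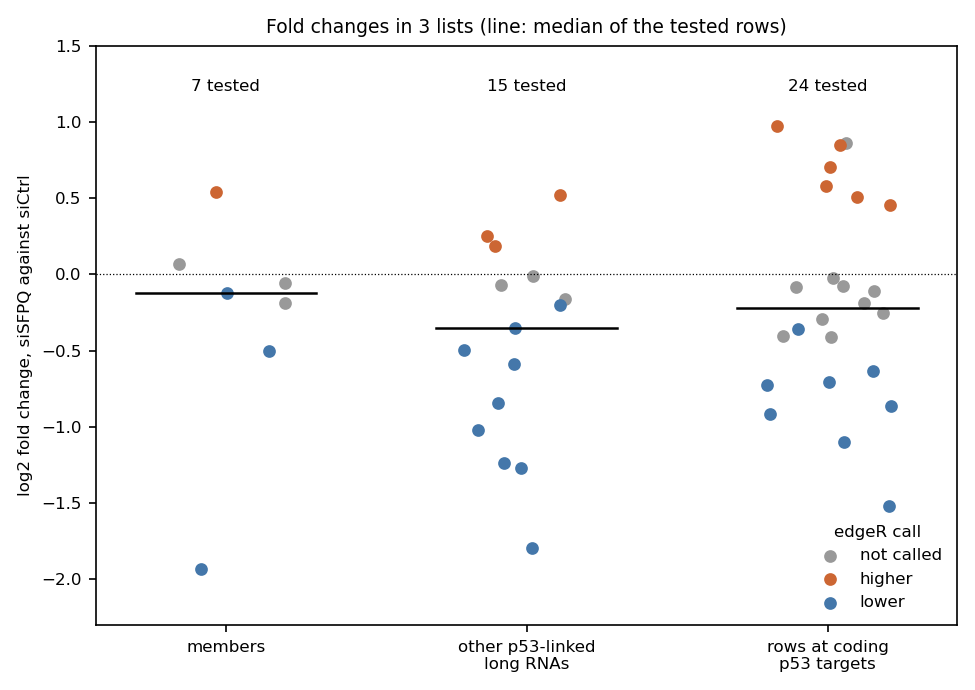
Log2 fold change of siSFPQ against siCtrl (y axis) of the tested genes in 3 lists (x axis): the members, other p53-linked long RNAs and genes at coding p53 targets; points are genes coloured by edgeR call and lines medians, at -0.13, -0.35 and -0.22. Each list holds genes called in both directions. The lists were chosen with earlier results of these data known.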

How the data were processed

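The deposited table gives unnormalised counts for each non-coding gene in 6 stranded libraries of poly(A)-selected RNA, per the labels' protocols and the file headers. Aligner, counter, annotation and build are not given in the sources used here. GENCODE 29 (GRCh38) holds 13886 of the gene identifiers, and for 13874 the listed position overlaps the one there; the listed coordinates were taken as GRCh38. Columns were matched to samples by title. Overlap with coding exons was taken from GENCODE 29 exons, or from the listed span for genes that release lacks.

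The test was edgeR's (version 4.0.16, R 4.3.3), a robust quasi-likelihood fit over all genes that passed filterByExpr, with TMM factors and siRNA as the sole term, after a check on simulated counts. SEs were taken from the F statistic. Each library was counted as a sample of its own. Chi-square per degree of freedom between libraries of a group was 1.24 to 1.40, above the sampling noise. This does not show whether they were separate cultures, since technical libraries can also exceed that noise. Alternatives were RLE and upper-quartile scaling, plain totals, filters, DESeq2 1.42.0, limma-voom (limma 3.58.1), a replicate block, leaving out each library and, added after the data were examined, scaling on genes without coding exon overlap and the list of other p53-linked RNAs without its least certain names.

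The members and lists were chosen with earlier results of these data known. Named genes were the members; from each of the other lists the 3 smallest adjusted p in each direction and the 3 most abundant; the most abundant tested neighbour; and the gene with the most similar profile. Others were named after their values were seen. PANDAR was left out of the test by the filter.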

Additional observations from a re-analysis of the deposited data

How the results depend on the processing

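Of 105 log2 fold changes of the members under alternatives, 97 kept direction and side of the threshold. PURPL lost its call with plain library totals (-0.0605), no low-count filter (-0.13) and DESeq2 (-0.13), and ran from -0.16 to -0.11 with a library left out. LINC-PINT changed sign with plain library totals (0.0046), and TP53TG1 ran from -0.0304 to 0.18 with a library left out, the lowest without siCtrl replicate 3; neither was called under any alternative run. Among other named genes, 3 uncalled values changed sign: RRN3P3 with plain totals (0.0165), LNCTAM34A without siCtrl replicate 1 (range with a library left out -0.28 to 0.14) and KIF23-AS1 without siCtrl replicate 3 (range -0.0289 to 0.18); SLC25A5-AS1 lost its call with plain totals (adjusted p = 0.068). Plain totals set the median of all tested genes at 0.07 and the share of calls that were higher at 57.5%, against 50.5% with TMM. DESeq2 called 854 genes higher and 899 lower, against 1547 and 1516; the cause was not tested. Same-numbered libraries did not deviate together (r across genes -0.0047, 0.00097 and 0.0104), so the numbers were not taken as pairs. A fit with the replicate block called 1535 genes higher, 1515 lower; for members it called 1 higher, 3 lower, with no call changed. Low counts limit PANDAR and DINOL.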

Other observations

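Several p53-linked genes were too low to test. BTG2-DT, beside the p53 target BTG2, had summed counts of 24 in siCtrl and 29 in siSFPQ, and TNFRSF10B-AS1, beside a death receptor gene, had 15 and 17. LINC00261 had 31 and 20. LINC-ROR, a reported repressor of p53, was listed at 0 in all 6 libraries, and MEG3, a reported activator of p53, had 2 counts in siCtrl and 0 in siSFPQ.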
